A study of Rattus norvegicus with 24 samples.

Results

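The genes described here are the autosomal genes of greatest annotated span among those expressed in the newborn rat cortex. A gene was taken when its annotated span, from the smallest start to the largest end of its exons, was at least 500 kb, when it had more than 1 CPM (counts scaled to a library total of 1000000) in at least 4 of the 24 pups, and when it lay on an autosome. Of the 26404 Ensembl genes listed, 94 spanned at least 500 kb, of which 3 lay on chromosome X and none on Y or the mitochondrial genome. All 3 on chromosome X had the level required and were left out for their chromosome. Of the 91 autosomal long genes, 12 did not reach the level required, 5 of them with 0 counts in every pup, which left 79 genes. All 79 had more than 1 CPM in all 24 pups. The share of autosomal long genes that reached the level required was 86.8%, against 54.7% of the shorter autosomal genes, and the 13778 shorter autosomal genes that reached it are the set for comparison.

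RNA was measured by sequencing in the right cerebral cortex of Sprague Dawley rat pups at P0. The saline pump group held 12 pups from 3 litters of dams that carried an implanted pump filled with saline, placed under anesthesia in late pregnancy. The spontaneous labor group held 12 pups from 3 litters of dams without pump surgery. Litter is not among the sample labels and was read from the number in the sample identifiers, which is taken here to mark the dam. By these numbers 2 males and 2 females came from each litter, and the labels name no genetic alteration in either group. The question addressed was whether anesthesia and surgery of the dam altered the cortex of the offspring, and because a dam is the unit that was operated on, conditions were compared over litters. Totals ran from 12170547 to 19260066 counts per pup, of which 64259 to 92494 fell in the long genes, and the lowest count of any long gene in any pup was 21.

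Most of a very long gene is intron. RNA polymerase II needs hours to cross such a gene, the introns are removed while transcription is under way, and the mature mRNA keeps only the exons, which is what a poly(A)-selected library counts. In the brain, very long genes commonly encode cell adhesion molecules, synaptic receptors and ion channel subunits, and their transcription is known to depend on topoisomerases that relax the DNA around the moving polymerase.

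Names could be paired with identifiers for 2 of the 79 genes. The names came only from lists that the paper gives for the comparison of the same conditions, so named genes are not a neutral sample. Dpp6 (ENSRNOG00000030547), the dipeptidyl peptidase-like subunit that associates with Kv4 potassium channels, lies on the minus strand at chr4:4062161-4724198 in Rnor_5.0 and spans 662037 bp. Galnt13 (ENSRNOG00000005335), an enzyme that starts O-linked glycosylation by adding N-acetylgalactosamine to proteins, lies on the plus strand at chr3:45130269-45710879 and spans 580610 bp. The other 77 are given by their Ensembl identifiers, and nothing is said of what they encode. Of 85 cell type marker symbols, 6 had an identifier, so the labelled cortex could not be checked against its neuronal markers. The marker symbols with an identifier were Vim of radial glia, Aqp4 of astrocytes, Cldn5 of endothelium, and Hba-a3, Alas2 and Ahsp of red blood cells.

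The long genes were spread over 18 chromosomes, with 12 on chromosome 4 and 9 on chromosome 1. No pair of them lay within 1 Mb of each other. The plus strand held 44 and the minus strand 35. Their median span was 608 kb, and together they covered 51.2 Mb of annotated sequence. The longest was ENSRNOG00000024345 on chromosome 9 (chr9:68228908-69236542), the only one above 1 Mb, at 1007634 bp in 24 exon blocks, where an exon block is a stretch covered by annotated exons without a break. ENSRNOG00000030243 followed on chromosome 3 (chr3:30668625-31634018) with 965393 bp in 55 exon blocks, and ENSRNOG00000018013 on chromosome 1 (chr1:49909479-50841981) with 932502 bp in 14. The shortest that still qualified were ENSRNOG00000004201 (501425 bp), ENSRNOG00000008683 (502227 bp) and ENSRNOG00000014264 (502682 bp). Just below the limit lay ENSRNOG00000011313 (499515 bp), ENSRNOG00000009480 (499417 bp) and ENSRNOG00000018931 (498846 bp).

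Their extra length was intronic. The exons of a long gene made up a median of 0.530% of its span, against 10.8% in the shorter genes. The exons summed to a median of 3525 bp in the long genes, from 450 to 13363 bp, and to 2084 bp in the shorter ones. The long genes had a median of 20 exon blocks, from 4 to 75, and the shorter genes a median of 9. A single gap between neighbouring exon blocks took a median of 26.2% of the span, or 173 kb. Counted from the 5′ end, this largest gap was the first in 30 of the 79 genes and the first or second in 45. In Dpp6 the first gap measured 325662 bp, 49.2% of the gene, and in Galnt13 the first gap measured 185614 bp, 32.0% of the gene.

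Not all of these spans rested on many exons. The largest gap exceeded 50% of the span in 14 genes and 90% in 4, which were ENSRNOG00000014946, ENSRNOG00000010176, ENSRNOG00000013389 and ENSRNOG00000029610. The plainest case was ENSRNOG00000014946 on chromosome 1 (chr1:196394580-197295841), in which the largest of the gaps between its 4 exon blocks measured 898102 bp, 99.6% of its span, and whose span held 16 other annotated genes. When the first or last exon block was left out, whichever shortened the gene more, 36 of the 79 still spanned 500 kb, so for the other 43 the length depended on an annotated end. The 43 include ENSRNOG00000031852, which kept 305044 bp, Dpp6, which kept 336150 bp, and Galnt13, which kept 394756 bp. The 36 include ENSRNOG00000014946, which kept 899858 bp, because leaving out an end block does not remove a large inner gap. Within the 79, 40 enclosed at least 1 other gene, 88 in all, of which 42 lay on the same strand and 17 reached the level required here. Exons of another gene overlapped those of only 2 long genes, ENSRNOG00000004201 over 1636 bp and ENSRNOG00000006957 over 16 bp. Each of these 2 enclosed 1 other gene, on its own strand. Ambiguous reads were left out of the counting, and its strand setting was not given in the sources used here. How far these overlaps lowered the counts is not known.

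**Figure D1:**
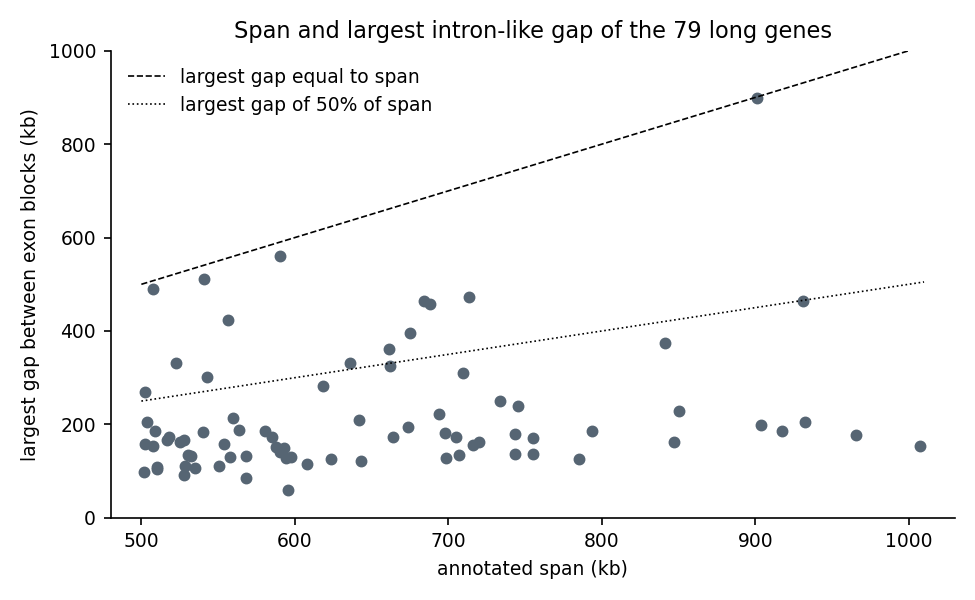
Annotated span (x axis, kb) against the largest gap between neighbouring exon blocks (y axis, kb), 1 point for each of the 79 long genes. The 14 points above the dotted line are genes in which 1 gap made up more than 50% of the span, and the point on the dashed line is ENSRNOG00000014946.

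Great span did not go with a low level. On the RPKM scale, which divides the CPM by the exonic length in kb and so allows levels to be compared between genes, the median of the long genes was 12.9 (quartiles 5.50 and 25.6, n = 79 genes), and that of the shorter genes was 11.7 (quartiles 3.83 and 29.0, n = 13778 genes). A mean above 20 RPKM was reached by 35.4% of the long and 34.7% of the shorter genes. The highest was ENSRNOG00000014371 on chromosome 19 (chr19:62076973-62720152), at 99.5 ± 10.3 RPKM (SD, n = 24 pups). It was followed by ENSRNOG00000006426 (chr7:50097034-50650569) with 93.4 ± 5.41 RPKM and ENSRNOG00000010649 (chr2:103069802-103662662) with 88.7 ± 4.97 RPKM. ENSRNOG00000031852 (chr11:62956510-63592532) reached 76.9 ± 9.68 RPKM and Dpp6 76.2 ± 6.45 RPKM. The ranges over pups of neighbours in this order overlapped. Galnt13 stood at 4.77 ± 0.858 RPKM, and the longest gene, ENSRNOG00000024345, at 1.71 ± 0.281 RPKM. The lowest was ENSRNOG00000027002, at 0.643 RPKM. Together the long genes took between 0.475% and 0.539% of all counts in a pup.

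The level of the long genes did not differ detectably between the conditions. By edgeR's quasi-likelihood test on the counts summed per litter, none of the 79 had an adjusted p of 0.05 or less, and none of the 14348 genes tested did (0% called). At an unadjusted p under 0.05 there was again no long gene, against 1.65% of all genes. With surrogate variables over the 24 pups, edgeR called 5 (0.0348%) and limma 11 (0.0767%) of the 14348, none of them a long gene. These 2 fits had no litter term and so took littermates as separate replicates, although the dam is the unit. The fitted log2 fold changes of the long genes, spontaneous labor minus saline pump, ran from -0.23 to 0.26 with a median of 0.01, and 42 were above and 37 below 0. Over all tested genes the median was 0.00.

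The share of counts in the long genes was 0.502%, 0.526% and 0.506% for the saline pump and 0.515%, 0.498% and 0.518% for spontaneous labor, 1 value per litter. The condition means were 0.511% ± 0.0132 and 0.510% ± 0.0111 (SD, n = 3 litters), and the ranges of the litters overlapped, with the highest litter in the saline pump group and the lowest in the spontaneous labor group.

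Dpp6 showed this overlap at a high level. Its litter sums gave 207, 204 and 188 CPM with the saline pump and 183, 200 and 198 CPM with spontaneous labor. The log2 fold change was -0.04 ± 0.06 (SE, unadjusted p = 0.489 from edgeR). The ranges of the conditions overlapped in part, with saline pump litters 1 and 2 above every spontaneous labor litter and spontaneous labor litter 1 below every saline pump litter.

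Galnt13 had the smallest unadjusted p among the positive differences of the long genes. Its litter sums were 9.84, 9.66 and 9.55 CPM with the saline pump and 12.01, 9.89 and 11.4 CPM with spontaneous labor. All spontaneous labor litters lay above all saline pump litters, the nearest by a small margin, and the log2 fold change was 0.19 ± 0.10 (SE, unadjusted p = 0.0838, adjusted p = 1.00 from edgeR). ENSRNOG00000007167 (chr15:20143551-20818336), a gene with only 450 bp of exon and 21 to 47 counts per pup, gave 1.93, 1.86 and 1.94 CPM against 2.34, 2.11 and 2.38 CPM, a log2 fold change of 0.25 ± 0.14. The groups of ENSRNOG00000018683 were also apart, at 37.5, 39.4 and 37.1 CPM against 39.5, 41.8 and 40.2 CPM. These 3 of 79 genes, 3.80%, were the long genes in which every spontaneous labor litter lay above every saline pump litter, and 3.09% of all tested genes did so. None showed the opposite order, which 3% of all tested genes did.

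Among the negative differences, that of ENSRNOG00000012045 (chr9:30096276-30829729) came mainly from 1 litter. It gave 112, 125 and 121 CPM with the saline pump and 112, 117 and 77.4 CPM with spontaneous labor, a log2 fold change of -0.22 ± 0.13, and -0.06 without spontaneous labor litter 3. With surrogate variables over the 24 pups, and no litter term, it was -0.46 by edgeR and -0.51 by limma. In spontaneous labor litter 3 the males gave 66.0 and 60.8 CPM and the females 62.6 and 121 CPM, and female pup 2 of spontaneous labor litter 1 gave 71.5 CPM. These 4 low pups lay apart from the other 20, which ran from 108 to 132 CPM and included the remaining pups of both litters. ENSRNOG00000009957 (chr4:31041996-31598338) gave 6.91, 5.003 and 6.59 CPM against 5.35, 4.61 and 5.82 CPM, a log2 fold change of -0.23 ± 0.15. Its groups overlapped as well.

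Between the sexes no long gene passed the test with edgeR, and most fitted values lay on the female side. Females and males were compared within litters, on counts summed over the 2 pups of a sex in each litter, with a litter term. At an adjusted p of 0.05 or less, edgeR called none of the 79 long genes and 10 of 14348 genes in all (0.0697% called). DESeq2 called 27 genes in all (0.188%), 1 of them a long gene. The genes counted in all were not limited to autosomes, whereas the long genes were. At an unadjusted p under 0.05, 16 of the 79 (20.3%) had a difference and all 16 were higher in females. Of all tested genes 9.51% had one, 5.46% higher and 4.04% lower in females. Among the 13857 autosomal genes tested the share was 9.43%, with 5.41% higher in females. The excess was not particular to the long genes. Among autosomal genes of 300 to 500 kb the share was 23.4%, with 21.6% higher in females, and from 200 to 300 kb it was 17.6%, with 16.7% higher. The 16 fell to 9 without saline pump litter 1 and to 9 without spontaneous labor litter 2. The share of all tested genes in those fits is not given, so the fall cannot be read as particular to the long genes. Of the 79, 64 (81.0%) had a fitted value above 0, against 49% of all tested genes and 48.9% of the autosomal ones.

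The differences were small. The median female minus male log2 fold change was 0.05 over the long genes and -0.00 over all tested genes, and single long genes ran from -0.13 to 0.25. The 16 genes lay between 0.09 and 0.25. In single litters, 5 of the 79 (6.33%) were above in the females of all 6 litters, and 25 (31.6%) in at least 5 of them. The same held for 2.72% and 14.2% of all tested genes. No long gene was lower in the females of all 6 litters, against 2.67% of all tested genes.

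**Figure D2:**
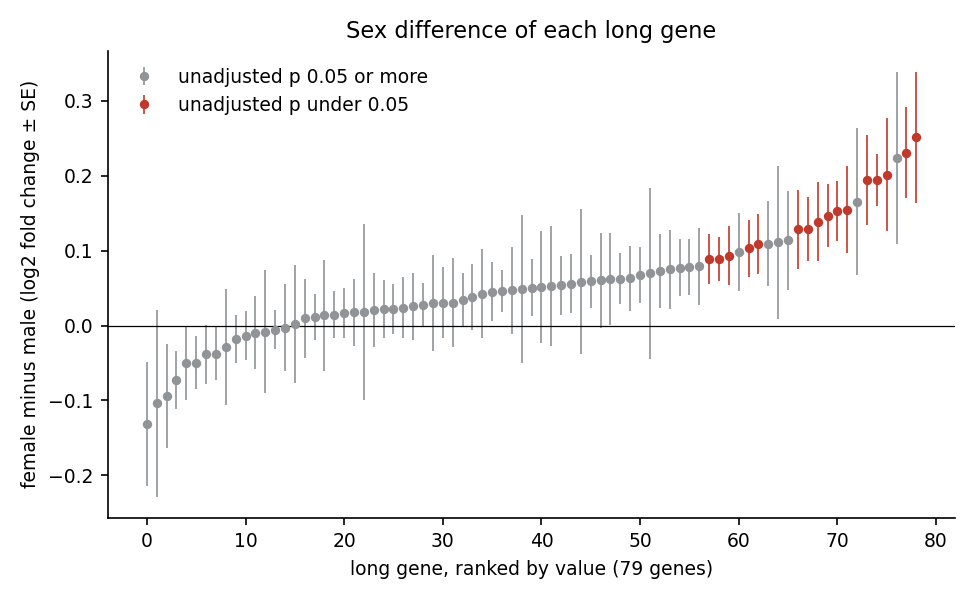
Fitted female minus male log2 fold change of each of the 79 long genes, ranked by value on the x axis, with its standard error as a bar. Red marks the 16 genes with an unadjusted p under 0.05, all of them above 0, and 15 of the 79 lie below 0.

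ENSRNOG00000031852, the fourth highest of the long genes by RPKM, had the smallest p. Its length rests on an annotated end, and without 1 end exon block it spans 305044 bp. Its females gave 89.9, 104 and 77.8 CPM with the saline pump and 91.3, 83.5 and 88.5 CPM with spontaneous labor. The males of the same litters gave 76.6, 83.5 and 71.3 CPM, and 79.7, 71.3 and 83.9 CPM. The female sum was the higher one in all 6 litters, although the ranges of both sexes overlapped because litters differed too. The log2 fold change was 0.19 ± 0.03 (SE), with an unadjusted p of 4.2e-05 and an adjusted p of 0.0550 by edgeR's quasi-likelihood test. Over 12 alternatives its adjusted p ran from 0.00760 to 0.364, and it passed 0.05 with DESeq2, without the filter on low counts, and without saline pump litter 3.

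ENSRNOG00000030243, the second longest, had a larger and less even difference. Its females gave 15.8, 21.1 and 15.5 CPM with the saline pump and 19.3, 17.2 and 18.1 CPM with spontaneous labor, and its males 12.6, 16.8 and 15.6 CPM and 16.8, 12.4 and 17.2 CPM. Females were above males in 5 of 6 litters and level with them in saline pump litter 3. The log2 fold change was 0.23 ± 0.06 (SE, unadjusted p = 0.00163, adjusted p = 0.286 from edgeR).

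The other genes that were above in the females of all 6 litters, named here after their values were seen, were ENSRNOG00000003878 with a log2 fold change of 0.15, ENSRNOG00000004158 with 0.13, ENSRNOG00000016429 with 0.15 and ENSRNOG00000006426 with 0.09. On the other side, ENSRNOG00000042536 (chr2:59859784-60521357) was below in the females of 5 of 6 litters, with 37.9, 43.2 and 38.0 CPM against 40.2, 49.8 and 39.7 CPM in the males of the saline pump litters. In the spontaneous labor litters its females gave 42.6, 35.7 and 42.5 CPM and its males 41.1, 38.2 and 43.8 CPM. Its log2 fold change was -0.07 ± 0.04 (SE, unadjusted p = 0.0796). ENSRNOG00000009957, at -0.13 ± 0.08, was the lowest of the 79, and neither passed the test.

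The named genes differed little. Dpp6 gave a log2 fold change of 0.04 ± 0.04 (SE, unadjusted p = 0.400 from edgeR), with 226 CPM in the females and 184 CPM in the males of saline pump litter 2 and smaller gaps in either direction elsewhere. Galnt13 gave 0.02 ± 0.12 (unadjusted p = 0.879 from edgeR), with females above males in 3 litters and below in 3. Without saline pump litter 2 both values were below 0, and that of Galnt13 also without spontaneous labor litter 1 or 2.

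**Figure D3:**
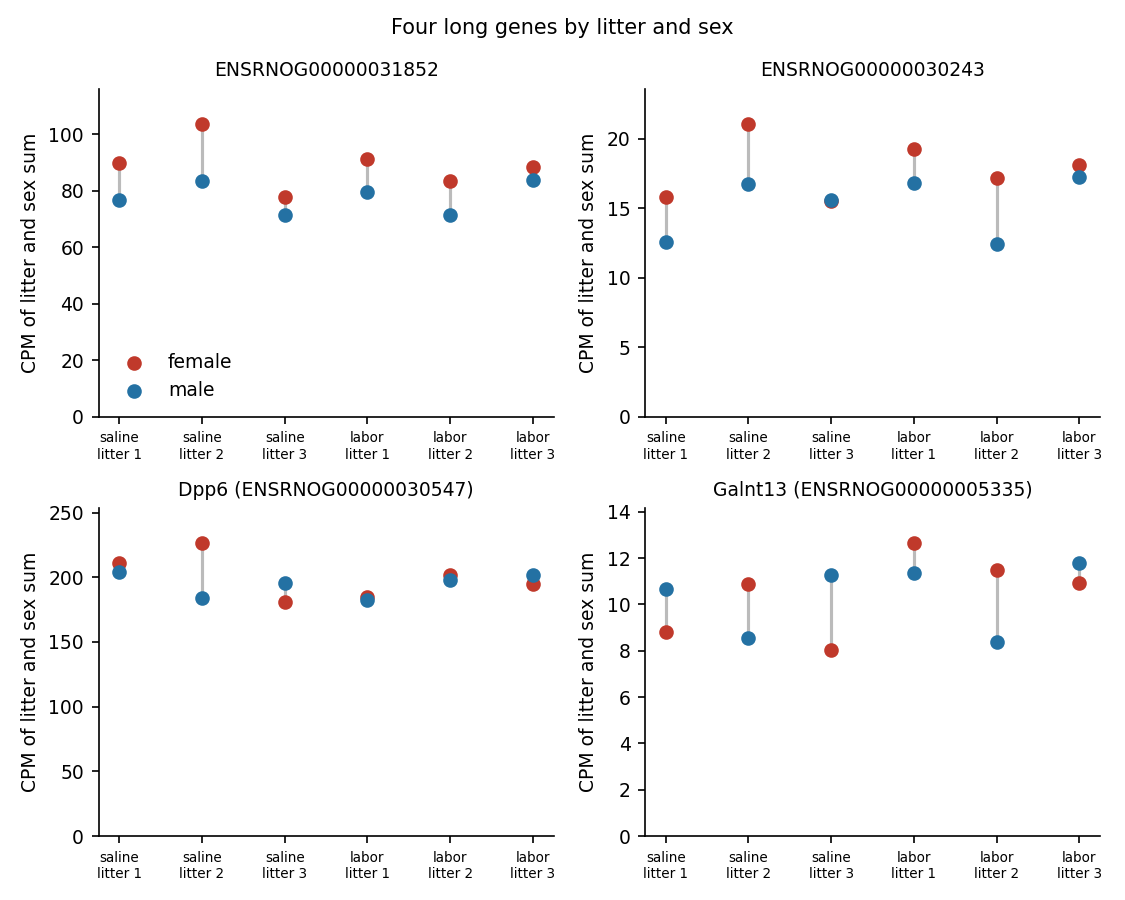
CPM of the female (red) and male (blue) counts summed within each litter, for ENSRNOG00000031852, ENSRNOG00000030243, Dpp6 and Galnt13, with a grey line joining the sexes of a litter. Red lies above blue in all 6 litters of ENSRNOG00000031852 and in 3 of 6 litters of Galnt13.

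Over the set as a whole, the sign was not the same in every litter. The median female minus male difference of the 79 genes was 0.09, 0.07 and -0.03 on the log2 scale in litters with the saline pump and 0.04, 0.10 and 0.00 in those of spontaneous labor. Females were above males for 60, 55 and 28 of the 79 genes in the former and for 56, 59 and 42 in the latter. The litters thus split into 4 with a clear female excess, 1 near level and 1, saline pump litter 3, on the other side. Over the 6 litters the mean was 0.05 ± 0.05 (SD), which is as large as the spread between litters, and for the shorter genes it was -0.00 ± 0.01. The long genes took 0.520% ± 0.0120 of the female and 0.503% ± 0.0161 of the male counts (SD, n = 6 litters).

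The pups showed the spread behind these medians. Each pup was given the median, over the 79 genes, of the deviation of its log2 CPM from the mean of the 24 pups. This median ran from -0.06 to 0.10 in the females, with 11 of 12 above 0, and from -0.11 to 0.07 in the males, with 6 of 12 above 0, so the sexes overlapped. For the shorter genes the same median stayed between -0.00 and 0.01 in every pup. Same-sex littermates differed by a median of 0.03 and by up to 0.13, the latter between the males of saline pump litter 3. A gap between littermates of one sex was thus in places larger than the sex difference.

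**Figure D4:**
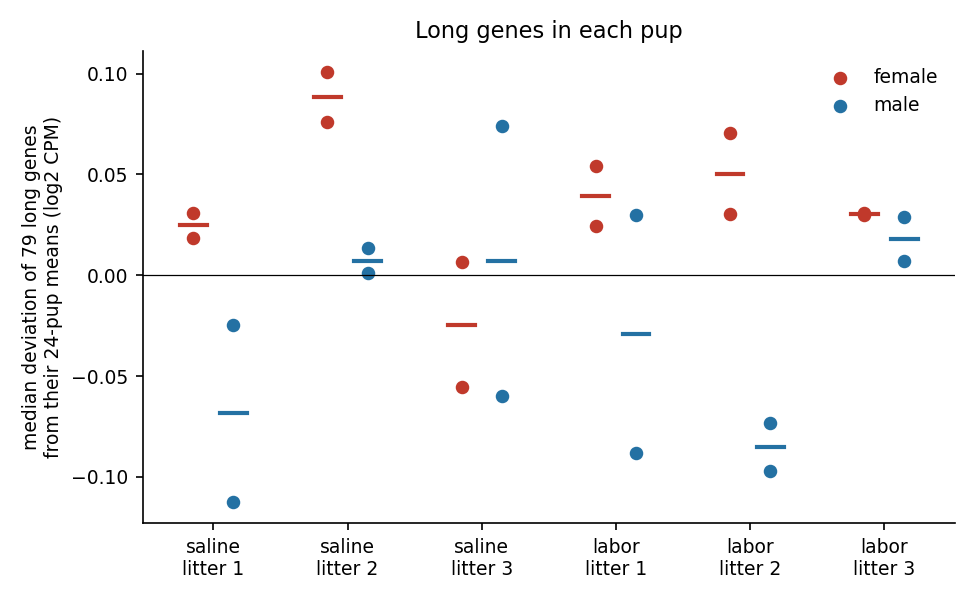
Median deviation of the 79 long genes from their means over 24 pups (y axis, log2 CPM) in each pup, by litter (x axis) and sex (red female, blue male), with a bar at the mean of each pair. The bar of the females is the higher one in every litter but saline pump litter 3, and the points of both sexes overlap between litters.

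The fitted difference between the sexes was graded by span over the whole range of genes, a description for which no test was made. The median female minus male log2 fold change was -0.02 in the 4296 autosomal genes under 10 kb, -0.01 in the 4258 from 10 to 30 kb and 0.01 in the 3658 from 30 to 100 kb. It was 0.02 in the 1012 genes from 100 to 200 kb, 0.04 in the 323 from 200 to 300 kb, 0.06 in the 231 from 300 to 500 kb and 0.05 in the long genes. The value climbed from bin to bin up to 500 kb, and the last bins were alike. The share of genes with a value above 0 went from 39.0% in the shortest bin through 56.2% and 70.0% to 77.5% from 300 to 500 kb and 81.0% in the long genes. The difference between conditions showed no such order, with medians between -0.01 and 0.01 in all 7 bins.

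**Figure D5:**
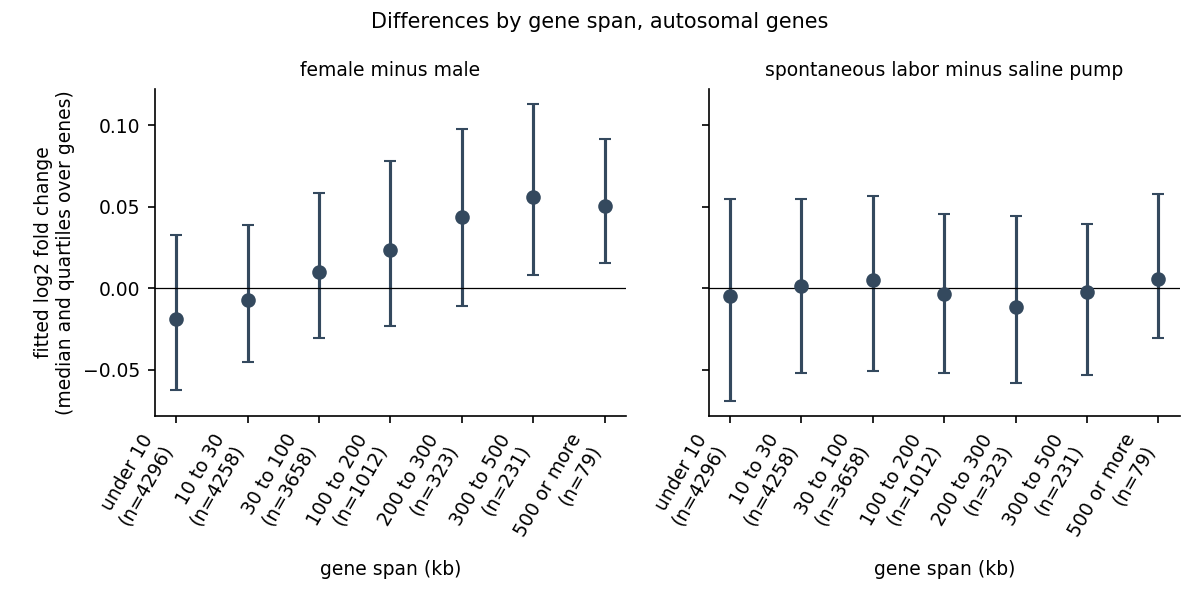
Median fitted log2 fold change (points) and quartiles over genes (bars) in 7 bins of gene span, for female minus male (left) and spontaneous labor minus saline pump (right). On the left the medians go from -0.02 under 10 kb to 0.06 from 300 to 500 kb and 0.05 in the long genes, and on the right they stay between -0.01 and 0.01.

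Long and shorter genes were also set side by side within classes of level and then of exonic length, as a description. The classes were broad, so neither trait was matched within them, and their part in the sex difference was not tested. At 50 CPM or more, for example, the median level was 25.8 RPKM for the long and 41.7 RPKM for the shorter genes. Among genes with 50 CPM or more, the median sex difference was 0.05 for the 35 long genes and -0.01 for 4331 shorter ones, and from 20 to 50 CPM it was 0.05 for 25 long genes and -0.01 for 3149 shorter ones. By exonic length, 9 long genes with under 1500 bp of exon had a median of 0.05, against -0.02 in 4118 shorter genes. From 1500 to 3000 bp the values were 0.03 for 24 and -0.01 for 5741 genes, and from 3000 to 5000 bp they were 0.04 for 31 and 0.01 for 2836. At 5000 bp or more they were 0.06 for 15 and 0.03 for 1083, with all 15 long genes and 71.7% of the shorter ones above 0. Among the shorter genes under 1500 bp that share was 41.0%, so it was also greater in shorter genes with more exon. The long genes were the higher set in every one of these classes. Among the 36 genes that kept 500 kb without an end block the median was again 0.05.

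Other measures that could move with sex are given beside these values, and their part in the result was not tested. Mitochondrial genes took from 4.74% to 6.22% of the counts in females and from 5.05% to 6.44% in males, and within litters the male share was the higher one in all but spontaneous labor litter 2. Of the 6 cell type markers with an identifier, Vim had a female minus male log2 fold change of -0.05, Aqp4 of 0.06, Cldn5 of -0.01, Hba-a3 of 0.11, Alas2 of 0.03 and Ahsp of -0.01. None of the 6 had an unadjusted p under 0.05 (edgeR, smallest 0.102). In bulk tissue, fewer cells of a type and less RNA per cell cannot be told apart. Of the 477 symbols in lists of gene families, 17 had an identifier. Of these, 13 had a female minus male log2 fold change above 0, against 49% of all tested genes. None of the 17 passed the test. An unadjusted p under 0.05 (edgeR) was found for 3, all with higher values in females, against 9.51% of all tested genes. These were Sema6a, a semaphorin of axon guidance, with 0.09, Dlg3, a synaptic scaffold protein, with 0.08, and Kcnn3, a calcium-activated potassium channel, with 0.14. So few genes do not describe their families, and their names came from lists made for the comparison of conditions. Neither the 17 nor the 6 markers were limited to autosomes, whereas the long genes were, so genes of chromosome X may be among them. Tardbp, which encodes an RNA-binding protein that helps to keep transcripts with long introns intact, had a log2 fold change of 0.06 ± 0.04 (SE, unadjusted p = 0.126), and Supt4h1, a subunit of a factor that aids elongation by RNA polymerase II, of -0.05 ± 0.04 (unadjusted p = 0.176).

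The sex difference was not shown to depend on the condition. In the test of condition by sex, none of the 79 long genes and 1 of 14348 genes (0.00697%) had an adjusted p of 0.05 or less by edgeR. At an unadjusted p under 0.05 there was no long gene and 3.33% of all genes, and DESeq2 called no long gene either. The fitted interactions of the long genes had a median of 0.02.

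Some long genes differed between litters of the same condition. An edgeR quasi-likelihood test over the 24 pups, with a term for sex, asked whether the 3 litters of a condition were alike. It called 20 of the 79 long genes (25.3%) and 4824 of 14348 genes in all (33.6%). At an unadjusted p under 0.05 the counts were 27 of 79 (34.2%) and 45.1% of all genes. Without saline pump litter 2, saline pump litter 3 or spontaneous labor litter 1 the 20 fell to 11, 13 and 12. These fits held fewer pups, and the share of all tested genes called in them is not given. The fall therefore cannot be read as particular to the long genes. The share of called genes was 34.0% among the shorter genes. It was 20.1% from 200 to 300 kb and 25.5% from 300 to 500 kb. At 50 CPM or more, 9 of 35 long genes (25.7%) and 46.0% of the shorter genes were called. Pups of a litter share a dam and a birth, and may share handling that the labels do not record.

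The smallest p belonged to ENSRNOG00000032437 on chromosome 19 (chr19:70690939-71248880). Its litter sums were 66.4, 60.9 and 45.6 CPM with the saline pump and 55.5, 59.4 and 61.3 CPM with spontaneous labor (adjusted p = 3.5e-06 from edgeR). Saline pump litter 3 was low in both sexes, at 45.9 CPM in the females and 45.2 CPM in the males. ENSRNOG00000006003 (chr4:172588005-173519137), the fourth longest at 931132 bp, gave 208, 212 and 196 CPM and then 172, 209 and 205 CPM (adjusted p = 7.26e-06). Here spontaneous labor litter 1 was low, at 173 CPM in the females and 171 CPM in the males, and the other litters lay close together. Both genes had nearly the same level in the females and males of a litter, with sex log2 fold changes of 0.02 and -0.01.

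ENSRNOG00000016429 (chr1:157535334-158095289) combined both kinds of difference. Its litter sums were 121, 145 and 111 CPM with the saline pump and 134, 119 and 131 CPM with spontaneous labor (adjusted p = 0.000811 from edgeR). Its females lay above its males in all 6 litters, with a log2 fold change of 0.15 ± 0.04 (SE, unadjusted p = 0.00197). ENSRNOG00000004201, whose exons overlap another gene, gave 45.1, 47.3 and 48.4 CPM and 54.8, 42.3 and 50.7 CPM (adjusted p = 0.000850).

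Correlations between long genes across pups were low on average. After the mean of the litter was taken from each pup's log2 CPM, the mean correlation over all pairs of long genes was 0.124, and over all pairs of autosomal genes it was 0.0005. It was 0.0320 for genes under 10 kb, 0.0059 from 10 to 30 kb, 0.0200 from 30 to 100 kb, 0.0591 from 100 to 200 kb, 0.0888 from 200 to 300 kb and 0.110 from 300 to 500 kb. With the mean of each sex in each litter taken instead, it was 0.0680 for the long genes, 0.0697 from 200 to 300 kb and 0.0854 from 300 to 500 kb, so the long genes did not have the highest value. These correlations are descriptions over the same 24 libraries, which differ in depth and share their dissections, and genes are not independent of each other.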

How the data were processed

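Right cerebral cortex RNA of 24 newborn pups was sequenced from poly(A)-selected RNA. The authors aligned reads to Rnor_5.0 with STAR 2.0.4b and used featureCounts to assign reads with 1 alignment and no ambiguity to Ensembl genes; the strand setting is not given in the sources used here. The deposited count tables were not normalized. The authors also deposited CPM, counts scaled to a library total of 1000000, and RPKM, which equals CPM per kb of summed exons. Condition and sex came from the labels, and litter from the numbers in identifiers in file names and a supplementary sample list; that these numbers mark the dam is assumed, and every value per litter rests on it.

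The 14348 genes above 1 CPM in 4 or more pups were tested on counts with edgeR 4.0.16 quasi-likelihood tests, TMM factors and Benjamini-Hochberg adjustment over all tested genes, at 0.05. Conditions were compared on 6 litter sums, sexes and condition by sex on 12 litter and sex sums, and litters over 24 pups. SE is the log2 fold change divided by the root of F. Single-pup log2 CPM carry a prior count of 0.5. Alternatives used DESeq2 1.42.0, limma 3.58.1 and sva 3.50.0 with 6 surrogate variables, in R 4.3.3; tables and figures used Python 3.11.15. Totals of 12170547 to 19260066 counts per pup set the counting precision. P-values for conditions set the difference against the spread between litters of a condition. Those for sexes and for condition by sex set it against the spread of the sex difference between litters. Those for litters set it against the spread between littermates.

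The tests were tried on simulated counts for 14348 genes, 200 of them changed. At a log2 change of 0.5 the comparison of conditions recovered 68%, that of sexes 81%, that of condition by sex 48% and that of litters 54%. No smaller change was simulated. The fitted values of the long genes ran from -0.23 to 0.26 between conditions and from -0.13 to 0.25 between sexes, so recovery at such sizes is not known. The members and lists were chosen with earlier results of these data known. Identifiers were paired with names only by 2 supplementary lists of 967 genes. The paper describes these as genes differentially expressed between the same conditions, so named genes are not a neutral sample. Of 477 symbols in lists of gene families, 17 had an identifier and 1 (Dpp6) was a long gene. The family lists could therefore not describe the long genes, and the 17 are given only beside the sex difference. The rule for named genes was the 10 of largest span, the 5 of highest RPKM, the 3 of smallest p in each direction between conditions and sexes, the 6 of smallest p between litters, the 3 genes on each side of the span limit, and any gene in a count of 5 or fewer. For want of names fewer were printed, at most 2 per direction. No sequences are shown.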

Additional observations from a re-analysis of the deposited data

Results flagged for a closer look

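Over 35 groups of 4 or 6 values, 2 had 1 value farther from the others than Dixon's 95% limit, where chance gives about 1.75. The median deviation of the long genes in male pup 2 of spontaneous labor litter 3 was 0.0071 on the log2 scale, against 0.0287 to 0.0309 in its 3 littermates, a gap that is small beside the range over all pups. The share of counts in the long genes of male pup 2 of spontaneous labor litter 1 was 0.491%, against 0.520% to 0.525% in its 3 littermates.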

How the results depend on the processing

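No long gene was called between conditions or for condition by sex under any alternative run. With the replicate block on the litter number, the count between conditions stayed at 0 and the median at 0.01. No source used here says that a number is shared between conditions, and the deviations of same-numbered litters from their condition means correlated at -0.149, 0.119 and -0.143 over 14348 genes, so the litters were not treated as paired. The median between conditions ran from -0.0085 to 0.037 without each litter in turn, the latter without saline pump litter 2, and the difference in the share of counts (-0.00074 percentage points) from -0.0055 to 0.0068 over all its alternatives. Between sexes 1 long gene, ENSRNOG00000031852, was called with DESeq2 and without the filter, and 0 or 1 without each litter, the 1 without saline pump litter 3. Among the 310 genes of at least 300 kb, 1 was called, ENSRNOG00000002863, which spans 455906 bp and is not a long gene. Genes with an unadjusted p under 0.05 between sexes numbered 9 to 22 without each litter, with 9 without saline pump litter 1 and 9 without spontaneous labor litter 2; 8 of the 36 genes that keep 500 kb without an end block, 70 of the 310 genes of 300 kb and 0 of the 1 gene of 1 Mb had one. The median between sexes stayed between 0.04 and 0.07 except for the 1 gene of 1 Mb (0.17). Library size scaling, and leaving out female pup 1 of saline pump litter 3, were chosen after seeing the data. Without each litter in turn, Dpp6 ran from -0.013 to 0.068 and Galnt13 from -0.071 to 0.11 between sexes. Long genes called between litters numbered 11 to 19 without each litter, with 11 without saline pump litter 2, 13 without saline pump litter 3 and 12 without spontaneous labor litter 1, fewer pups being tested; 79 of 310 genes of 300 kb and 0 of 1 gene of 1 Mb were called. The cause of the other shifts was not tested. For the fits without 1 litter, the share over all tested genes is not given beside these counts. Depth limits ENSRNOG00000007167 most, with 21 to 47 counts per pup.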
